A study of Mus musculus with 6 samples.

Results

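The clustered protocadherins are neuronal cell-surface adhesion proteins encoded side by side in 3 clusters, named alpha, beta and gamma. They were measured here by RNA sequencing of the hippocampus in DBA/2 and C57BL/6, inbred mouse strains often crossed in genetic studies. Members were taken by gene symbol (Pcdha, Pcdhac, Pcdhb, Pcdhga, Pcdhgb and Pcdhgc with their numbers). This gave 58 of the 51912 genes in the deposited table, with 14 in the alpha cluster, 22 in the beta cluster and 22 in the gamma cluster. DBA/2 and C57BL/6 had 3 libraries each, all from frozen hippocampus and with no treatment named in the labels. Sex, age and substrain are not stated. The labels do not say plainly whether a library came from 1 animal or from pooled tissue, so p-values given here rest on the spread among libraries, some of which may be technical.

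Each alpha and gamma gene has a large first exon of its own, with its own promoter, which is spliced to small constant exons that all genes of that cluster share. The variable exon encodes the extracellular cadherin repeats, through which a protein recognises the same isoform on another membrane, and the constant exons encode the shared intracellular tail. Beta genes consist essentially of the variable exon and have no shared tail. Individual neurons choose a few of the alternate alpha, beta and gamma promoters, seemingly at random, with the help of the architectural protein CTCF, cohesin and DNA methylation, and the resulting combination of isoforms lets a neuron tell its own branches from those of other neurons. The C-type genes (Pcdhac1, Pcdhac2, Pcdhgc3, Pcdhgc4 and Pcdhgc5) are used more uniformly across neurons of a given kind.

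On GRCm38 all 58 members lie on the plus strand of chromosome 18. The alpha genes span positions 36930184 to 37187661, the beta genes 37264938 to 37524479 and the gamma genes 37661793 to 37841873. Among the other annotated genes of the region, 7 have no exonic base of their own, and all 7 had 0 counts in every library. The gamma gene Pcdhga10 has none either, since a gene on the other strand covers its variable exon, yet it had 14 to 32 counts a library. Between 404 and 3028 exonic bases of each alpha gene are unshared, against 2860 to 6267 that are shared. Pcdhga10 apart, genes made up of shared bases alone thus had 0 counts, and whether reads on shared bases were left out was not tested. Levels per length are given below as CPM per kilobase of unshared exon. CPM is a gene's count over the library's total count, scaled for composition. Fewer cells using a promoter and less RNA per cell, among the possible sources of a lower level, cannot be told apart in whole-tissue libraries. How sequence differences of a strain from GRCm38 affect its counts was not tested, nor was the part of tissue make-up.

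Library totals were 13839366 to 16912153 counts in DBA/2 and 13867280 to 20185683 counts in C57BL/6. The X-inactivation transcript Xist had 12, 10 and 2 counts in the DBA/2 libraries, against 3214, 1 and 6995 counts in the C57BL/6 libraries. All 6 libraries also held Y-linked reads, with 2977 to 4206 counts in DBA/2 summed over Ddx3y, Eif2s3y, Kdm5d and Uty. The C57BL/6 replicates 1, 2 and 3 had 2864, 2955 and 3003 such counts, from totals of 16826010, 13867280 and 20185683. Relative to library totals, Y-linked reads were thus fewer in C57BL/6 replicates 1 and 3, which hold Xist, than in every other library. Without the C57BL/6 replicates 1 and 3, a choice made after seeing the data, 16 of the 22 calls given below remained and no member was added. Counts were tested with edgeR's quasi-likelihood test over 17517 genes, and a gene was called when its Benjamini-Hochberg adjusted p was under 0.05. A positive log2 fold change means a higher level in DBA/2 than in C57BL/6. Of all tested genes 22.8% were called, 9.09% as higher and 13.7% as lower in DBA/2, and in 36.8% all libraries of 1 strain lay above all those of the other. The median absolute log2 fold change over all tested genes was 0.15.

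Among the clustered protocadherins, 55 of 58 members passed the filter on low counts, and 22 of these 55 (40%) were called, against 22.8% of all tested genes. Called members were split evenly, with 11 higher in DBA/2 (20%) and 11 lower (20%). For 29 members (52.7%) the values of DBA/2 and C57BL/6 libraries did not overlap, against 36.8% of all tested genes. The median log2 fold change over the 55 members was 0.08 and the median absolute one was 0.37. In the alpha cluster 3 of 12 tested members were higher and 2 were lower, in the beta cluster 6 of 21 were higher and 2 were lower, and in the gamma cluster 2 of 22 were higher and 7 were lower. As shares of the tested members of a cluster, 28.6% of beta genes were higher, against 9.09% of all genes, and 31.8% of gamma genes were lower, against 13.7% of all genes. Of the 22 called members, 8 changed by at least 1 on the log2 scale, which is 14.5% of the tested members, against 5.21% of all tested genes. The filter did not decide which members were tested through 1 strain alone, since 54 of the 55 passed its level in all 6 libraries. The exception was Pcdha4, which passed it in 3 DBA/2 and 2 C57BL/6 libraries and was not called.

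**Figure D1:**
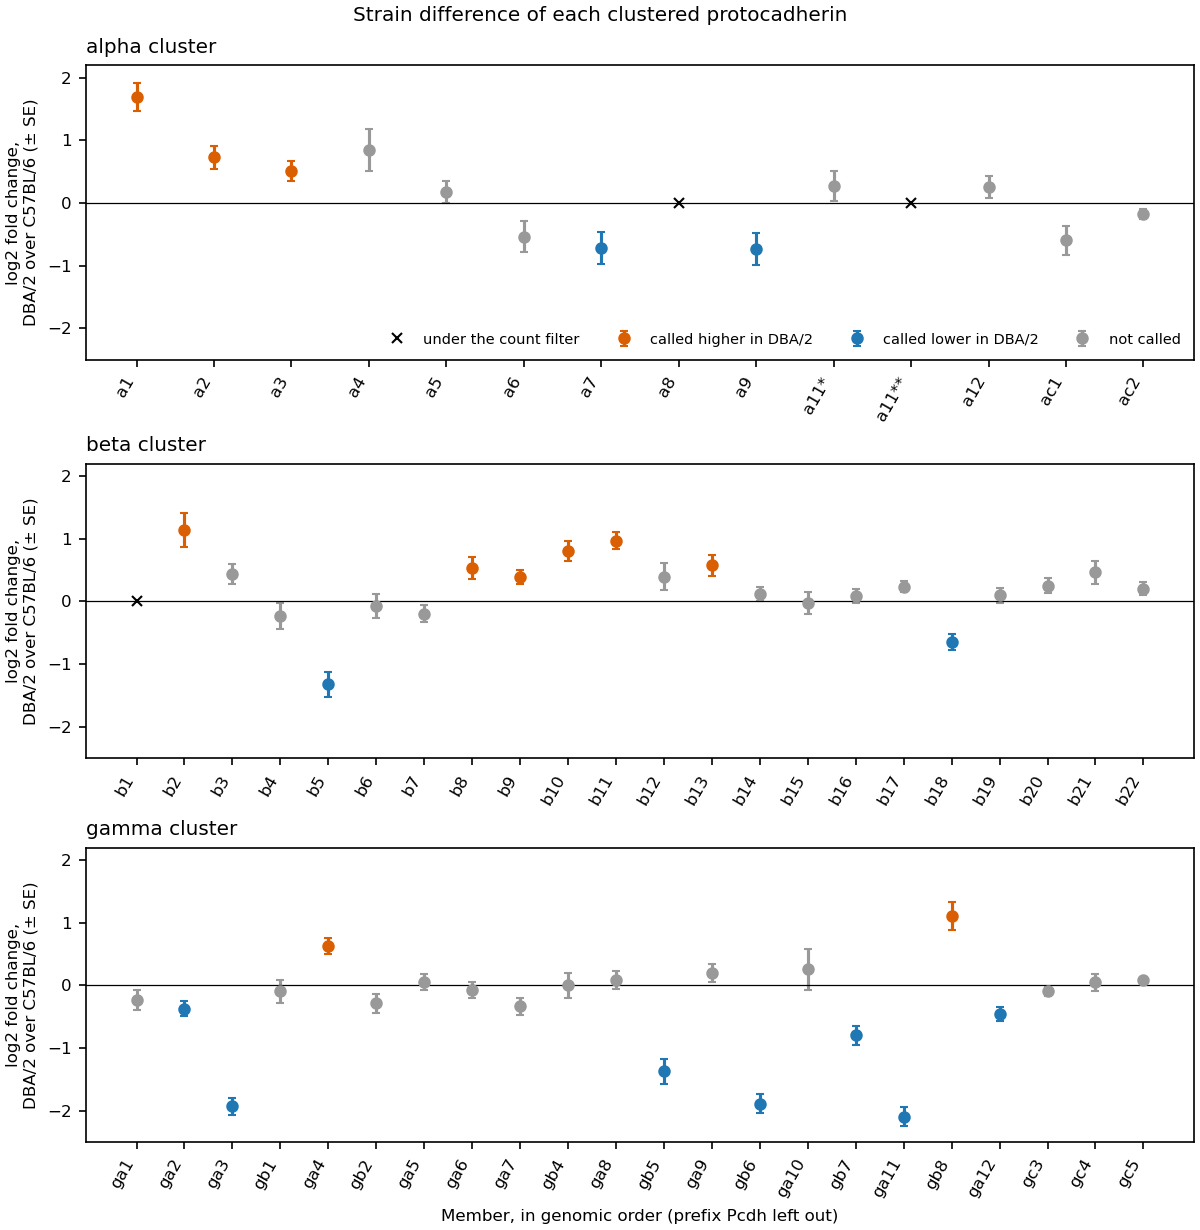
Log2 fold change of DBA/2 over C57BL/6 for each clustered protocadherin in genomic order, with its standard error; 1 panel per cluster. Orange points were called higher in DBA/2 (11 members), blue points lower (11), grey points were not called, and crosses at 0 mark the 3 members under the count filter, for which no fold change was computed; the 2 genes with the symbol Pcdha11 are ENSMUSG00000007440 (*) and ENSMUSG00000102206 (**). Calls in both directions stand in each cluster, and the lowest points are Pcdhga11, Pcdhga3 and Pcdhgb6.

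The gamma cluster held the members with the largest differences. Pcdhga11 had 51, 54 and 36 counts in the DBA/2 libraries, against 225, 161 and 249 counts in the C57BL/6 libraries. Its level fell to 2.92 ± 0.30 CPM in DBA/2, against 12.6 ± 0.91 CPM in C57BL/6 (SD, n = 3 each), and the log2 fold change was -2.10 with a standard error of 0.15 (edgeR, adjusted p = 8.35e-11); all values after ± on log2 fold changes below are standard errors. Every DBA/2 library lay far below every C57BL/6 library. Pcdhga3 had 57, 66 and 49 counts in the DBA/2 libraries, against 213, 199 and 277 counts in the C57BL/6 libraries. It averaged 3.59 ± 0.28 CPM in DBA/2 and 13.7 ± 0.85 CPM in C57BL/6, with a log2 fold change of -1.93 ± 0.14 (edgeR, adjusted p = 1.00e-10). Both genes encode gamma A-type isoforms, which differ from each other in the extracellular repeats and share the tail. Pcdhgb6, a gamma B-type gene, had 52, 61 and 41 counts in the DBA/2 libraries, against 194, 157 and 250 counts in the C57BL/6 libraries. Its log2 fold change was -1.89 ± 0.14 (edgeR, adjusted p = 4.36e-10), from 3.20 ± 0.34 CPM in DBA/2 and 11.9 ± 0.54 CPM in C57BL/6. For these 3 genes the highest DBA/2 library stayed below the lowest C57BL/6 library by a wide margin, 3.89 CPM against 12.8 CPM in the case of Pcdhga3.

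The other 4 gamma genes that fell were Pcdhgb5, Pcdhgb7, Pcdhga12 and Pcdhga2. Pcdhgb5 had 37, 42 and 23 counts in the DBA/2 libraries, against 84, 80 and 113 counts in the C57BL/6 libraries, with a log2 fold change of -1.37 ± 0.20 (edgeR, adjusted p = 9.77e-06). Pcdhgb7 averaged 4.34 ± 0.31 CPM in DBA/2 and 7.54 ± 0.14 CPM in C57BL/6, with a log2 fold change of -0.80 ± 0.15 (edgeR, adjusted p = 0.000262). The libraries of the strains were separate for both genes. Pcdhga12, the last A-type gene before the C-type genes, averaged 9.71 ± 1.11 CPM in DBA/2 and 13.4 ± 0.27 CPM in C57BL/6, with a log2 fold change of -0.45 ± 0.11 (edgeR, adjusted p = 0.00458). Pcdhga2 averaged 7.70 ± 0.45 CPM in DBA/2 and 9.96 ± 0.52 CPM in C57BL/6, with a log2 fold change of -0.37 ± 0.12 (edgeR, adjusted p = 0.0328). The Pcdhga2 call was lost when any 1 of 5 libraries was left out (every library but DBA/2 replicate 3), with the adjusted p reaching 0.123.

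Pcdhgb8 and Pcdhga4 were the gamma genes that rose. Pcdhgb8, annotated as a polymorphic pseudogene and placed between Pcdhga11 and Pcdhga12, had 65, 103 and 49 counts in the DBA/2 libraries, against 36, 29 and 40 counts in the C57BL/6 libraries. Its log2 fold change was 1.11 ± 0.23 (edgeR, adjusted p = 0.000776), and DBA/2 replicate 2, at 6.07 CPM, stood above the other two DBA/2 libraries at 3.82 and 3.53 CPM. All C57BL/6 libraries lay lower, between 2.00 and 2.17 CPM. Pcdhga4 had 11.3, 11.7 and 9.44 CPM in the DBA/2 libraries, against 7.16, 6.05 and 7.68 CPM in the C57BL/6 libraries, with a log2 fold change of 0.63 ± 0.13 (edgeR, adjusted p = 0.00104). The groups did not overlap. Along the chromosome the gamma genes from Pcdhgb5 to Pcdhga12 were mixed, with Pcdhgb5, Pcdhgb6, Pcdhgb7, Pcdhga11 and Pcdhga12 lower, Pcdhgb8 higher and Pcdhga9 and Pcdhga10 not called. That stretch was singled out after its values were seen.

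**Figure D2:**
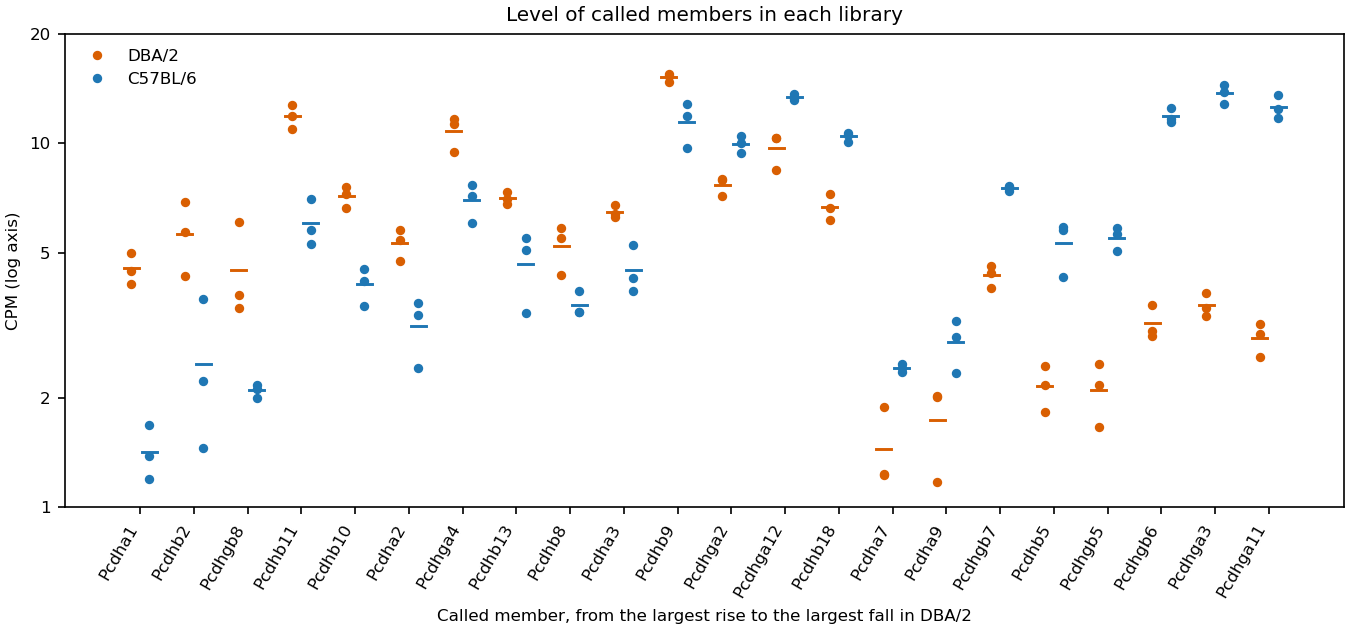
CPM (log axis) of the 22 called members in each library, with DBA/2 points left of the C57BL/6 points of the same member and a short line at each mean. Members run from the largest rise in DBA/2 (Pcdha1) to the largest fall (Pcdhga11), and for none of them do the points of the strains overlap.

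The fall of 7 genes showed in the gamma cluster as a whole. These 7 summed to 33.6 ± 1.62 CPM in DBA/2 and 74.5 ± 0.31 CPM in C57BL/6, or 13.0% against 25.5% of the cluster's counts. The 2 that rose summed to 15.3 ± 2.38 CPM in DBA/2 and 9.06 ± 0.79 CPM in C57BL/6. The 13 gamma genes that were not called summed to 209 ± 16.01 CPM in DBA/2 and 209 ± 1.81 CPM in C57BL/6. All 22 gamma genes together reached 245, 279 and 249 CPM in the DBA/2 libraries, against 295, 292 and 291 CPM in the C57BL/6 libraries, a log2 difference of -0.18. No DBA/2 library reached the C57BL/6 range, and the DBA/2 libraries varied more (SD 18.6 CPM in DBA/2 and 2.09 CPM in C57BL/6). The calls chose these groups, so their sums are a description and carry no test. By type, the 12 A-type genes summed to 83.6 ± 5.52 CPM in DBA/2 and 107 ± 1.41 CPM in C57BL/6, and the 7 B-type genes to 31.7 ± 4.19 CPM in DBA/2 and 46.3 ± 0.46 CPM in C57BL/6.

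**Figure D3:**
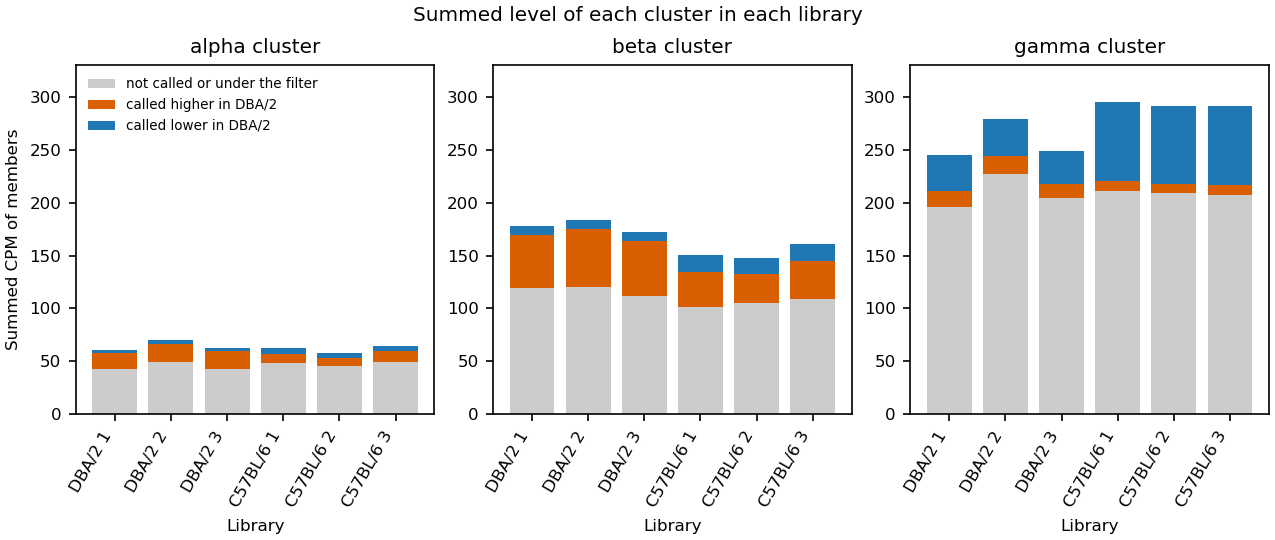
Summed CPM of the members of each cluster in each library, the 3 DBA/2 libraries left of the 3 C57BL/6 libraries, with the bars divided into members not called or under the filter (grey), called higher (orange) and called lower in DBA/2 (blue). In the gamma panel the grey part averages 209 CPM in both strains while the blue part is 33.6 CPM in DBA/2 and 74.5 CPM in C57BL/6.

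The tissue label was checked with marker genes. All 8 markers of hippocampal principal neurons were detected (2 higher, 3 lower in DBA/2). Their sum was 1372 to 1413 CPM in DBA/2 and 1293 to 1306 CPM in C57BL/6. Summed levels of the 5 general neuronal markers overlapped, at 5225 to 5470 CPM in DBA/2 and 5205 to 5395 CPM in C57BL/6. Markers of the neighbouring thalamus and habenula moved with strain: 7 of 10 fell in DBA/2, their sum was 196 to 260 CPM in DBA/2 and 378 to 511 CPM in C57BL/6, and none was at 0 in any library. The 4 oligodendrocyte markers (1 lower) summed to 4007 to 5389 CPM in DBA/2 and 5873 to 7336 CPM in C57BL/6. The 8 choroid plexus markers summed to 1240 to 2731 CPM in DBA/2 and 671 to 1509 CPM in C57BL/6. Of 6 astrocyte markers 1 rose and 3 fell, and their sum was 3862 to 4420 CPM in DBA/2 and 3587 to 3798 CPM in C57BL/6. Most of that sum was Slc1a2, the marker that rose, with a mean of 3314 CPM in DBA/2 and 2689 CPM in C57BL/6. Of 4 cortical and striatal markers 2 rose. Over all tested genes, 9.09% were called higher and 13.7% lower in DBA/2. The part of these cells in the differences of the alpha, beta and gamma genes was not tested.

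Of the 5 C-type genes of both clusters 0 were called by edgeR, by any alternative test or without any 1 library, and 2 (Pcdhac1 and Pcdhac2) had an unadjusted p under 0.05. The edgeR share over all tested genes was 22.8%, and 5 genes are too few to set against it. Pcdhgc5, which encodes an isoform that appears after birth and binds GABA-A receptors, took the most counts of any member, not corrected for length. It had 87.0, 97.0 and 93.5 CPM in the DBA/2 libraries, against 89.2, 89.3 and 83.7 CPM in the C57BL/6 libraries, and these ranges overlapped (log2 fold change 0.08 ± 0.06; edgeR, adjusted p = 0.326). It made up 35.9% of gamma counts in DBA/2 and 29.9% in C57BL/6. Pcdhgc3, which acts in dendrite growth through Axin1 in mouse cortex, averaged 37.4 ± 3.24 CPM in DBA/2 and 40.0 ± 1.18 CPM in C57BL/6, with a log2 fold change of -0.10 ± 0.07 (edgeR, adjusted p = 0.380). Pcdhgc4, the isoform that mouse neurons need for survival during development, had 10.98, 15.5 and 11.5 CPM in the DBA/2 libraries, against 11.3, 11.6 and 13.8 CPM in the C57BL/6 libraries. Its log2 fold change of 0.05 ± 0.13 had no stable sign, since it was -0.13 without DBA/2 replicate 2. Pcdhac2, which serotonergic axons need for their even spread in the mouse, averaged 27.0 ± 2.08 CPM in DBA/2 and 30.4 ± 2.23 CPM in C57BL/6, with a log2 fold change of -0.17 ± 0.08 (edgeR, adjusted p = 0.137). Pcdhac1 averaged 1.86 ± 0.25 CPM in DBA/2 and 2.79 ± 0.36 CPM in C57BL/6, with libraries that did not overlap and a log2 fold change of -0.59 ± 0.23 (edgeR, adjusted p = 0.0698). All 5 together summed to 171 ± 11.4 CPM in DBA/2 and 173 ± 2.13 CPM in C57BL/6.

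Per kilobase of unshared exon, the gamma cluster was led by Pcdhgc3, with 20.5 CPM per kilobase in DBA/2 and 22.0 in C57BL/6, and Pcdhgc5, with 20.1 in DBA/2 and 19.0 in C57BL/6. Pcdhga11 followed over both strains, with 2.33 CPM per kilobase in DBA/2 and 10.01 in C57BL/6. The length of Pcdhgc3 and Pcdhga11 depends on whether bases shared only with a gene on the other strand count as shared. With such bases counted as unshared, a choice made after seeing the data, Pcdhgc3 had 11.1 CPM per kilobase in DBA/2 and 11.8 in C57BL/6, below Pcdhgc5, and Pcdhga11 had 1.11 in DBA/2 and 4.77 in C57BL/6, below the 5.27 of Pcdhga3 in C57BL/6. The order of Pcdhgc3 and Pcdhgc5, and the highest of the alternate gamma genes in C57BL/6, therefore depend on that choice. In DBA/2 the highest alternate gamma gene was Pcdhga4 under both lengths, with 6.88 CPM per kilobase there and 4.44 in C57BL/6. In the alpha cluster Pcdhac2 led with 8.93 CPM per kilobase in DBA/2 and 10.04 in C57BL/6. Pcdha4 and Pcdha12 came next. Pcdha4 had 3.71 CPM per kilobase in DBA/2 and 2.01 in C57BL/6, from only 404 unshared bases, and Pcdha12 had 2.68 in DBA/2 and 2.27 in C57BL/6. These places are open to the same choice of length, under which Pcdha4 had 3.04 in DBA/2 and 1.65 in C57BL/6, and Pcdha12 had 2.10 in DBA/2 and 1.78 in C57BL/6. The beta genes were more even and were led by Pcdhb9 with 4.96 CPM per kilobase in DBA/2 and 3.75 in C57BL/6, Pcdhb17 with 4.18 in DBA/2 and 3.55 in C57BL/6, and Pcdhb20 with 3.48 in DBA/2 and 2.91 in C57BL/6. No value per kilobase could be given for Pcdhga10, because the annotated gene Gm26672 on the other strand covers all of its variable exon. Pcdhga10 had 32, 16 and 16 counts in the DBA/2 libraries, against 23, 14 and 19 counts in the C57BL/6 libraries.

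**Figure D4:**
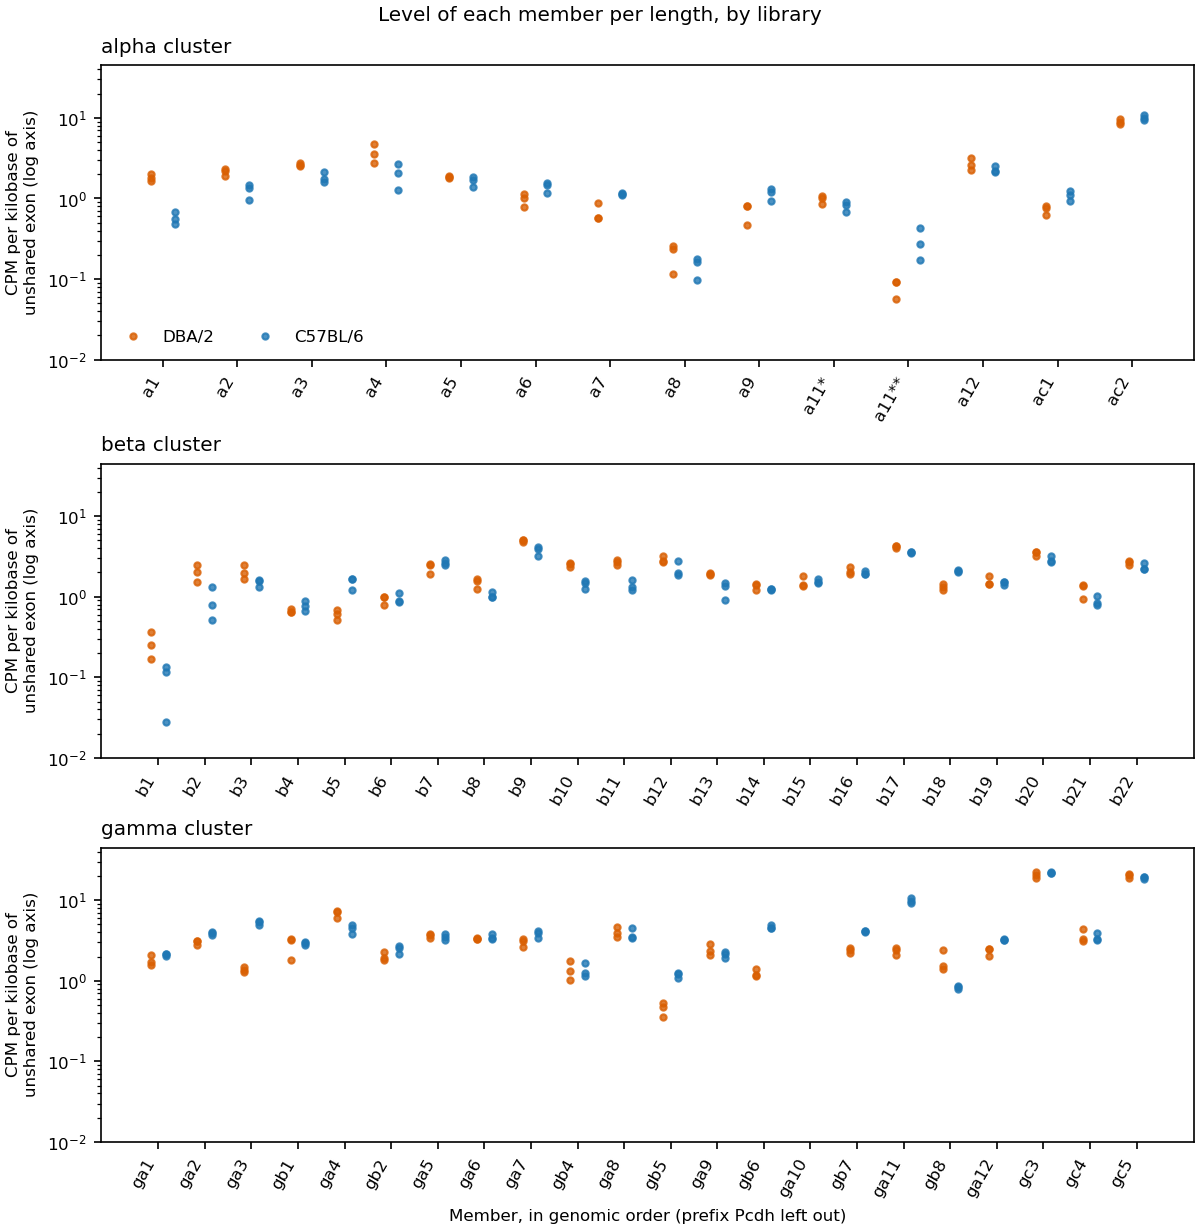
CPM per kilobase of unshared exon (log axis) of each member in each library, in genomic order, DBA/2 points left of C57BL/6 points; 1 panel per cluster, with the 2 Pcdha11 genes marked as ENSMUSG00000007440 (*) and ENSMUSG00000102206 (**). Pcdhgc3 and Pcdhgc5 stand above the alternate genes in both strains, and Pcdhga11 is at 2.33 CPM per kilobase in DBA/2 and at 10.01 in C57BL/6 (1.11 in DBA/2 and 4.77 in C57BL/6 with bases shared only with the other strand counted as unshared). Pcdhga10 has no point because it has no unshared base.

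In the beta cluster most called members were higher in DBA/2. Beta proteins have extracellular repeats like those of the other clusters and join alpha and gamma proteins in mixed recognition complexes. Pcdhb11 had 187, 217 and 165 counts in the DBA/2 libraries, against 88, 79 and 141 counts in the C57BL/6 libraries, and averaged 11.9 ± 0.90 CPM in DBA/2 and 6.03 ± 0.90 CPM in C57BL/6. Its log2 fold change was 0.97 ± 0.13 (edgeR, adjusted p = 6.62e-06), and the libraries of the strains were separate. Pcdhb10, its neighbour, averaged 7.15 ± 0.48 CPM in DBA/2 and 4.09 ± 0.48 CPM in C57BL/6, with a log2 fold change of 0.80 ± 0.16 (edgeR, adjusted p = 0.000436). Pcdhb2 had 97, 117 and 60 counts in the DBA/2 libraries, against 37, 20 and 75 counts in the C57BL/6 libraries. It showed the largest beta rise, 1.14 ± 0.27 (edgeR, adjusted p = 0.00778), but also a wide spread, with 4.32 to 6.89 CPM among the DBA/2 libraries and 1.46 to 3.74 CPM among the C57BL/6 libraries. Pcdhb8, Pcdhb9 and Pcdhb13 rose by less, with log2 fold changes of 0.53, 0.39 and 0.58 and edgeR adjusted p-values of 0.0313, 0.0120 and 0.0128. The call of Pcdhb9 was lost without C57BL/6 replicate 2 (adjusted p = 0.0747), as was that of Pcdhb13 (adjusted p = 0.0797), and that of Pcdhb8 was lost when DBA/2 replicate 2 or 3 or C57BL/6 replicate 1 or 3 was left out (adjusted p up to 0.108).

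Pcdhb5 and Pcdhb18 went the other way. Pcdhb5 had 37, 31 and 34 counts in the DBA/2 libraries, against 98, 59 and 116 counts in the C57BL/6 libraries. Its level fell to 2.15 ± 0.31 CPM in DBA/2, against 5.33 ± 0.89 CPM in C57BL/6, a log2 fold change of -1.33 ± 0.20 (edgeR, adjusted p = 2.27e-05). Pcdhb18 averaged 6.68 ± 0.54 CPM in DBA/2 and 10.5 ± 0.30 CPM in C57BL/6, with a log2 fold change of -0.65 ± 0.13 (edgeR, adjusted p = 0.000459). For both genes each DBA/2 library was below each C57BL/6 library. The 13 tested beta genes that were not called had log2 fold changes between -0.23 and 0.46, and among them Pcdhb3, Pcdhb17 and Pcdhb20 had libraries that did not overlap. Pcdhb17 averaged 19.5 ± 0.44 CPM in DBA/2 and 16.5 ± 0.28 CPM in C57BL/6 and missed the threshold (edgeR, adjusted p = 0.0602). With libraries scaled by total count alone it passed (adjusted p = 0.0356). All 22 beta genes summed to 178, 184 and 173 CPM in the DBA/2 libraries, against 150.5, 147 and 161 CPM in the C57BL/6 libraries, a log2 difference of 0.22 with no overlap between the strains.

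In the alpha cluster the first 3 genes along the chromosome rose. Pcdha1, which stands at the far end from the constant exons, had 70, 85 and 62 counts in the DBA/2 libraries, against 23, 23 and 24 counts in the C57BL/6 libraries. It averaged 4.53 ± 0.45 CPM in DBA/2 and 1.42 ± 0.24 CPM in C57BL/6, a log2 fold change of 1.69 ± 0.22 (edgeR, adjusted p = 2.84e-06), and made up 7.03% of alpha counts in DBA/2 and 2.31% in C57BL/6. This was the largest rise among all members. Pcdha2 averaged 5.31 ± 0.51 CPM in DBA/2 and 3.14 ± 0.65 CPM in C57BL/6, with a log2 fold change of 0.73 ± 0.19 (edgeR, adjusted p = 0.00522). Pcdha3 averaged 6.48 ± 0.26 CPM in DBA/2 and 4.48 ± 0.68 CPM in C57BL/6, with a log2 fold change of 0.52 ± 0.16 (edgeR, adjusted p = 0.0194). The Pcdha3 call was lost without DBA/2 replicate 2, C57BL/6 replicate 1 or C57BL/6 replicate 2 (adjusted p = 0.0686 to 0.0832). Pcdha4, the next gene, had 19, 33 and 20 counts in the DBA/2 libraries, against 18, 7 and 17 counts in the C57BL/6 libraries, and was not called with a log2 fold change of 0.85 ± 0.34 (edgeR, adjusted p = 0.0760). Without DBA/2 replicate 1 it passed (adjusted p = 0.0472).

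Pcdha7 and Pcdha9, further along the alpha cluster, fell. Pcdha7 had 21, 32 and 17 counts in the DBA/2 libraries, against 41, 33 and 47 counts in the C57BL/6 libraries, with a log2 fold change of -0.72 ± 0.26 (edgeR, adjusted p = 0.0463). Pcdha9 had 20, 34 and 28 counts in the DBA/2 libraries, against 54, 32 and 59 counts in the C57BL/6 libraries, with a log2 fold change of -0.73 ± 0.25 (edgeR, adjusted p = 0.0372). The raw counts of Pcdha9 overlap between the strains, those of Pcdha7 nearly so, and after scaling to CPM the libraries of both genes are separate. Their adjusted p-values are the highest among the 22 called members. Pcdha7 held its call in 1 of the 6 fits that left out a library, the one without DBA/2 replicate 2, and Pcdha9 in 3 of 6, losing it without DBA/2 replicate 1, C57BL/6 replicate 1 or C57BL/6 replicate 3 (adjusted p up to 0.195). Summed over all 14 genes the alpha cluster had 60.4, 70.0 and 62.6 CPM in the DBA/2 libraries, against 63.0, 57.9 and 64.8 CPM in the C57BL/6 libraries. These ranges overlapped, and the log2 difference of 0.05 had no stable size or sign. It was -0.01 without DBA/2 replicate 2, 0.01 without C57BL/6 replicate 2 and 0.10 without DBA/2 replicate 1. Pcdhac2 made up 42.1% of the alpha counts in DBA/2 and 49.1% in C57BL/6. The 12 genes from Pcdha1 to Pcdha12 alone summed to 35.4 ± 3.38 CPM in DBA/2 and 28.7 ± 1.35 CPM in C57BL/6.

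The 3 members under the count filter were Pcdha8, Pcdhb1 and the gene with the symbol Pcdha11 and the identifier ENSMUSG00000102206. Pcdha8 had 4 to 11 counts in the DBA/2 libraries and 4 to 8 counts in the C57BL/6 libraries. Pcdhb1 had 6 to 16 counts in the DBA/2 libraries and 1 to 7 counts in the C57BL/6 libraries. ENSMUSG00000102206 had 1 to 2 counts in the DBA/2 libraries and 3 to 9 counts in the C57BL/6 libraries. Counts this low do not allow a difference to be read. The deposited table gives the symbol Pcdha11 to a second gene as well, ENSMUSG00000007440, which RefSeq on the same build names Pcdha10 by its position. That gene averaged 2.43 ± 0.28 CPM in DBA/2 and 2.01 ± 0.30 CPM in C57BL/6 and was not called (edgeR, adjusted p = 0.464).

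Some members resemble each other closely, or overlap in annotation, so that the authors' counting could have divided their reads. With at least 200 aligned bases at 95% identity as the measure, 16 members fell into 3 families, and no member resembled a gene outside the clusters. The largest family holds the 12 genes from Pcdha1 to Pcdha12, so the values of single alpha genes are uncertain in this respect. Counted as 1 unit, these 12 genes had a log2 fold change of 0.30 ± 0.08. The other families pair Pcdhb21 with Pcdhb22, whose exons overlap on the chromosome by 455 bases, and Pcdhgb1 with Pcdhga4, which overlap by 1038 bases. Whether reads on such bases were divided or left out was not tested. How they were counted is not given, so the rise of Pcdhga4 alone is uncertain too. Counted as 1 unit each, the alpha family, the Pcdhb21 and Pcdhb22 pair (log2 fold change 0.26 ± 0.09) and the Pcdhgb1 and Pcdhga4 pair (0.30 ± 0.10) all passed the threshold as higher in DBA/2, while Pcdhb21 and Pcdhb22 did not pass it singly. Pcdhgb1 itself was not called and spread widely in DBA/2, with 4.70, 8.66 and 8.36 CPM there, against 7.34, 7.73 and 7.93 CPM in C57BL/6. The genes with the largest falls stand outside these families. That comparison used reference transcripts alone, so where DBA/2 reads of these genes align was not tested. Pcdhga11 had no match of that length, the best match of Pcdhga3 was Pcdhga5 at 86.2% identity, and that of Pcdhgb6 was Pcdhgb7 at 93.1%.

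The region holds 27 other annotated genes, of which 14 overlap members, 7 were tested and 1 was called. Of all tested genes 22.8% were called. The called gene was Gm37446, antisense to Pcdhb12, with 18, 26 and 14 counts in the DBA/2 libraries, against 7, 8 and 9 counts in the C57BL/6 libraries (log2 fold change 1.32 ± 0.37; edgeR, adjusted p = 0.0109). Pcdhb12 itself averaged 3.24 ± 0.31 CPM in DBA/2 and 2.43 ± 0.57 CPM in C57BL/6 and was not called (edgeR, adjusted p = 0.221). Whether the counting used strand is not given. It is thus not known whether reads on bases that a gene shares with an antisense partner were told apart. Gm26672, opposite Pcdhga10, had 10 to 14 counts in the DBA/2 libraries and 17 to 22 counts in the C57BL/6 libraries and was not called. The readthrough and antisense genes Gm42416, Gm37013, Gm37388, Gm38182, Gm38225 and Gm37118, and the pseudogene Gm20162, were the 7 without an unshared base, all at 0 counts. The noncoding RNA gene 4930517L18Rik, which has 482 unshared bases and overlaps no member, was at 0 too. Gm37753, Gm18150, Gm10545 and Gm37165 had at most 13 counts in any library, and Gm10544 and BC037039 were tested and not called. Taf7, a general transcription factor gene between the beta and gamma clusters, averaged 8.88 ± 0.37 CPM in DBA/2 and 9.78 ± 0.21 CPM in C57BL/6, with a log2 fold change of -0.14 ± 0.12 (edgeR, adjusted p = 0.452).

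Of 24 regulators of promoter choice and of chromatin at the clusters, 3 (12.5%) were called, all of them higher in DBA/2, against 22.8% of all tested genes, and the median log2 fold change was 0.10. These were Zfp143, which encodes a zinc-finger transcription factor, with 15.0 ± 0.26 CPM in DBA/2 and 11.1 ± 0.05 CPM in C57BL/6, the cohesin loader gene Mau2, and Trim28, a co-repressor gene. Their log2 fold changes were 0.43, 0.24 and 0.18, with edgeR adjusted p-values of 0.00314, 0.00122 and 0.0125. Ctcf was not called (log2 fold change 0.12 ± 0.06; edgeR, adjusted p = 0.118). Of 25 signalling partners of the proteins, 5 rose and 1 fell, a share of 24% near that of all tested genes, with a median of 0.04, and the largest changes were those of the kinase genes Cdk5 (-0.19) and Rock2 (0.18) and of the actin regulator gene Wasf1 (0.18). Of 11 tested non-clustered protocadherins, which lie elsewhere in the genome, 4 (36.4%) were called. Pcdh1 rose (log2 fold change 0.19) and Pcdh9, Pcdh7 and Pcdh20 fell (-0.26, -0.18 and -0.15), and the median was -0.15.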

How the data were processed

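RNA was extracted with TRIzol and made into NEBNext Ultra libraries run on an Illumina HiSeq, per the labels' protocols. The submitters' processing notes name build GRCm38 and the tools Trimmomatic 0.30, HISAT2 2.0.1 and Cufflinks 2.2.1. How genes were counted, with which annotation and whether by strand, is not given in the sources used here. GRCm38 represents C57BL/6J, and how DBA/2 sequence differences affect alignment was not tested. The authors deposited raw counts and FPKM values, and the FPKM equalled counts scaled by listed exonic length and library total within 0.005. Since that length includes shared exons, FPKM served only as an alternative. The table's 12 columns that match no labelled sample were not used.

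Counts were tested with edgeR 4.0.16 in R 4.3.3 (quasi-likelihood F test, robust fit, TMM factors, filterByExpr by strain) over all 17517 tested genes, with Benjamini-Hochberg adjustment. The filter kept genes above 0.595 CPM (10 counts at the median library) in 3 libraries. Levels are CPM with TMM factors, as mean ± SD over 3 libraries, and the SE of a log2 fold change is its size over the root of F. A count of 0 allows up to 3 counts, or 0.150 to 0.219 CPM, which covers counting error only. Libraries of a strain differed beyond sampling noise (chi-square per degree of freedom 3.36 to 4.22), so none was merged. The procedure was tested on simulated counts, drawn with the dispersions that edgeR estimated from these data. That simulation held no effect of strain sequence or of shared exons. Exonic lengths of all 58 members equal those of GENCODE M21, which gave coordinates and unshared bases, and variable exons were compared with all transcripts by megablast (BLAST 2.17.0).

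The members, gene lists and tests were chosen with earlier results of these data known. Named genes are every called member, the 3 members of each cluster with the highest level per kilobase, all C-type members, those under the filter, genes overlapping members, and up to 3 called genes of each other list with the largest change. Pcdh20, Ctcf, Taf7, Pcdhb3, Pcdhb12, Pcdhgb1 and Pcdhga10 were added after their values were seen.

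Alternatives were DESeq2 1.42.0 size factors and Wald test, library size alone, no count filter, a mean of 5 CPM, limma-voom and limma 3.58.1 on log2(FPKM + 1) and log2(FPKM + 0.1), a fold threshold of 1 (log2), the replicate number as a block, resembling members summed, and leaving out libraries.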

Additional observations from a re-analysis of the deposited data

How the results depend on the processing

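All 22 called members kept their sign in every fit, and 15 were called in every fit that tested them, including those without 1 library, leaving aside the fold threshold and the fit without both Xist libraries. Alpha members called higher, 3 as reported, were 1 at a mean of at least 5 CPM, 1 with resembling members summed and 1 with a log2 fold threshold of 1, and 2 to 4 when 1 library was left out. Alpha members called lower, 2 as reported, were 1 with library size alone and 1 with no count filter; they were 0 at 5 CPM, by the DESeq2 Wald test, by limma with FPKM at either pseudocount, with members summed and with the fold threshold, and 0 to 2 when 1 library was left out. The fold threshold left 1 higher and 1 lower beta member and 1 higher and 4 lower gamma members, and the mean of 5 CPM left 1 lower beta and 1 higher gamma member. The gamma difference of -0.18 became -0.34 as a mean of member log2 fold changes, which weighs the rare genes equally. Pcdhgc4 ranged from -0.13 to 0.15 when 1 library was left out.

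The labels do not say that replicate numbers pair the libraries. Deviations of same-numbered libraries correlated at 0.13, -0.08 and 0.00, and those of differently numbered ones at -0.13 to 0.12. With 3 libraries per strain these values cannot decide whether the numbers mark pairs. With the replicate block, 1 alpha member was called lower, because Pcdha9 missed the threshold (adjusted p = 0.0513), and the counts in the other groups stayed as reported. Without the 2 C57BL/6 libraries that hold Xist, a setting chosen after seeing the data, 16 members were called, all among the 22 (Pcdha3, Pcdha7, Pcdha9, Pcdhb8, Pcdhga2 and Pcdhga12 were not), and 0 alpha members were lower; the lone C57BL/6 library is then assumed to vary like the others. Library size alone moved the median of all genes by 0.02. At low counts standard errors were wide, 0.34 for Pcdha4 and 0.33 for Pcdhga10, against 0.06 for Pcdhgc5. Smaller differences in such members could be missed.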
